A study of Rattus norvegicus with 7 samples.

Results

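The enzymes and regulators of de novo lipogenesis were followed in the rat meibomian gland after ultraviolet B (UVB) irradiation of the eyelid. The set held 9 genes chosen by symbol: Slc25a1, Acly, Acss2, Me1, Acaca, Fasn, Srebf1, Thrsp and Mlxipl. Of these, 8 were found among the 17246 genes of the deposited tables, and Mlxipl was not analysed here. All 8 passed the filter on low counts. RNA sequencing had been done on meibomian glands of wild-type female Sprague-Dawley rats aged 3 months. The 4 control libraries came from rats labelled as receiving no treatment. The 3 UVB libraries came from rats whose shaved upper eyelids received 300 mJ/cm2 in 5 min per day for 5 days. The labels do not state whether controls were shaved or how long after the last exposure the glands were taken. They also do not state that each library came from a separate animal, so the p-values measure the spread between these libraries, part of which may be technical. Letters name the libraries, a to d for the controls and a to c for UVB, and a shared letter does not pair them.

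De novo lipogenesis builds palmitate from acetyl-CoA in the cytosol. Citrate leaves the mitochondrion and is cleaved to acetyl-CoA, which is carboxylated to malonyl-CoA and then extended by fatty acid synthase with NADPH as the reductant. Transcription of these enzymes is driven by SREBP-1c, the product of Srebf1, which answers to insulin and sterols, and by ChREBP, the product of Mlxipl, which answers to glucose. The meibomian gland is a holocrine gland whose cells fill with lipid, burst, and release wax and sterol esters onto the tear film, and fatty acids are the starting material of both.

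Library totals ran from 20680237 to 28784941 counts. Markers of meibocytes, the lipid-producing cells, were among the most abundant transcripts: Scd ranked first of 17246 genes in the controls, and Awat2 measured 10767 to 12062 TPM there (TPM, a length-corrected share of all transcripts). Of 12 meibocyte markers 0 were higher and 3 were lower after UVB by edgeR (Awat2, Cidea and Plin2). The list median was -0.0856, and 5 of 12 were above 0 without a call: Mc5r (0.82), Elovl3 (0.54), Pparg (0.22), Krt79 (0.13) and Soat1 (0.10). The summed level of the 12 was 47702 to 57676 TPM in controls and 43935 to 50634 TPM after UVB. Most of that sum was Scd (25353 to 31198 TPM in controls, 25000 to 30815 TPM after UVB). Of 5 fibroblast markers 3 were higher (summed 896 to 1402 TPM in controls, 1176 to 1900 TPM after UVB). So were 3 of 8 leukocyte markers (368 to 444 against 467 to 598 TPM), 2 of 5 basal keratinocyte markers (8061 to 10275 against 10509 to 11611 TPM) and 2 of 4 endothelial markers (34.8 to 42.1 against 43.1 to 46 TPM). The basal keratinocyte calls were Krt14 and Itga6; Krt5, Tp63 and Col17a1 had log2 fold changes of -0.0215, -0.0887 and -0.18, and the list median was -0.0215. Of 6 suprabasal keratinocyte markers 1 was lower (2623 to 3224 against 2738 to 4208 TPM), and of 10 adipocyte markers 1 was higher and 2 were lower (144 to 222 against 157 to 186 TPM). None was called among 5 skeletal muscle markers (1747 to 2496 against 1216 to 2130 TPM), 2 conjunctival markers (3941 to 5344 against 4854 to 6342 TPM) or 1 red cell marker (0.45 to 0.97 against 0.55 to 1.03 TPM). The leukocyte calls were Cd163, Cpa3 and S100a9, and S100a9 made up most of the leukocyte sum (307 to 366 against 398 to 549.9 TPM). Ptprc, Csf1r, Cd68 and Cd3e had log2 fold changes of -0.0454, -0.00933, -0.41 and -0.55, and 4 of 8 leukocyte markers were above 0. Among the fibroblast markers 4 of 5 were above 0 (not Col1a1, -0.48), and among the endothelial markers 3 of 4 (not Emcn, -0.20). Of all tested genes 13.0% were called in either direction. No analysed marker was at 0 in all libraries. The part of these shifts in the results below was not tested, and in bulk tissue fewer cells of a type and less RNA per cell cannot be told apart.

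The 8 genes were well expressed in every library. They took 0.584% to 0.71% of the counts of a control library and 0.722% to 0.782% of those of a UVB library. Counts give more weight to long transcripts. The summed TPM of the 8 genes overlapped between the groups, at 2486 to 2959 TPM in controls and 2940 to 3309 TPM after UVB. On the TPM scale, which is corrected for length, the order of the control means was Slc25a1, Me1, Fasn, Acly, Thrsp, Srebf1, Acaca and Acss2, from 714 TPM down to 96.3 TPM. Slc25a1 and Me1 were not separated: Slc25a1 was the higher in 4 of 7 libraries. Me1 lay above Fasn in 7 of 7 libraries with no overlap of their ranges. Fasn lay above Acly in 7 of 7 libraries, although their control ranges overlapped, and Srebf1 likewise lay above Acaca in 7 of 7. Acly exceeded Thrsp in 6 of 7 libraries and Acaca exceeded Acss2 in 6 of 7. Among all genes ranked by control TPM, Slc25a1 was 169th, Me1 177th, Fasn 326th and Acss2 1447th.

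**Figure D1:**
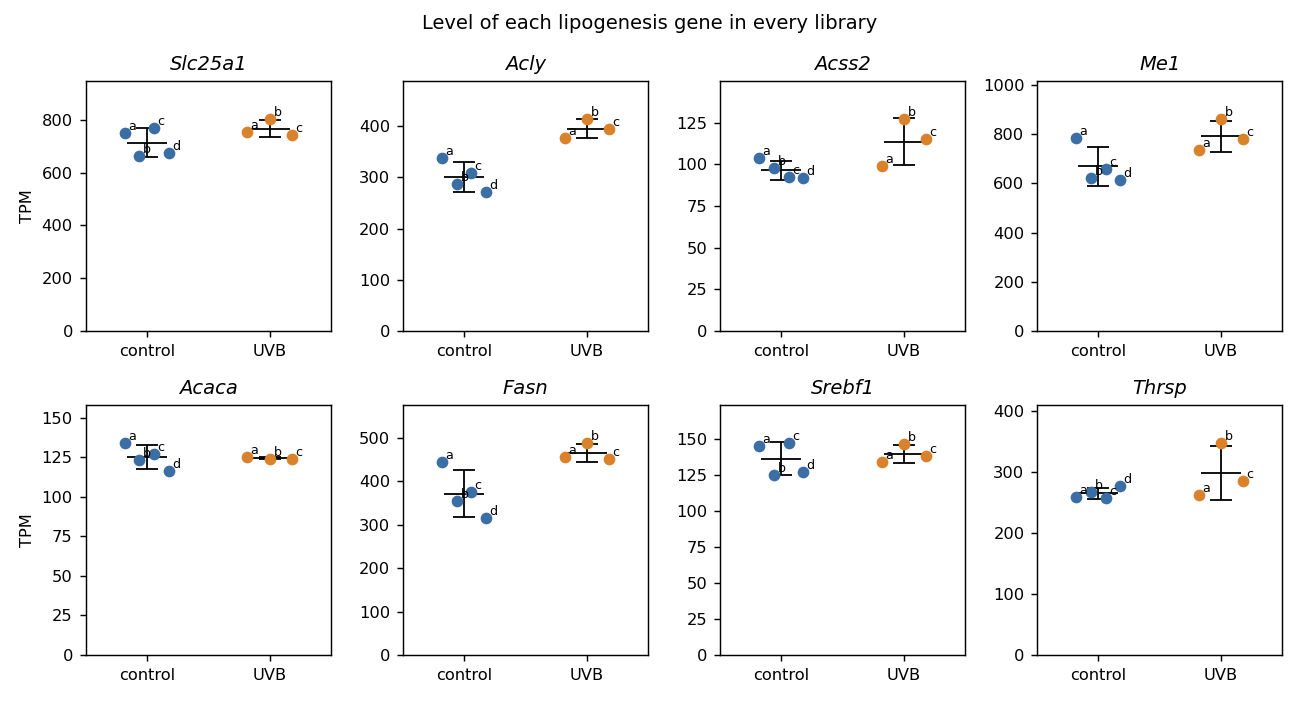
TPM (vertical axes, from 0) of each of the 8 lipogenesis genes in the 4 control libraries (blue, a to d) and the 3 UVB libraries (orange, a to c); the long bar is the group mean and the whiskers are 1 SD. For Acly and Fasn every UVB point lies above every control point, whereas Acaca and Srebf1 occupy the same range in both groups.

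The main comparison asked which lipogenesis genes differed between UVB and control glands. Acly, which encodes the enzyme that cleaves citrate to acetyl-CoA, rose by 30.4% (log2 fold change 0.38, SE 0.0907, edgeR adjusted p = 0.0258). The other 7 genes did not pass the threshold of 0.05. So 1 of 8 was called higher and 0 lower, where 6.30% of all 13709 tested genes were called higher, 6.74% lower and 13.0% in either direction. At an unadjusted p under 0.05 there were 3 of 8 (Acly, Fasn and Acss2), beside 29.5% of all tested genes. The median log2 fold change was 0.20 over the 8 genes and -0.0058 over all tested genes, and 7 of 8 were above 0 beside 49.1% of all. The median of the 8 genes was 0.0945 without UVB b and 0.28 without UVB a, the ends of its range when 1 library was left out. In 2 of 8 genes, Acly and Fasn, every UVB library lay above every control on the TPM scale, as did 13.5% of tested genes. The count of calls rested on single libraries. Among the 8 genes the count was 0 when control b, c or d was left out, or UVB b or c. It was 3 without control a (Acly, Fasn and Me1) and 2 without UVB a (Acly and Acss2).

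**Figure D2:**
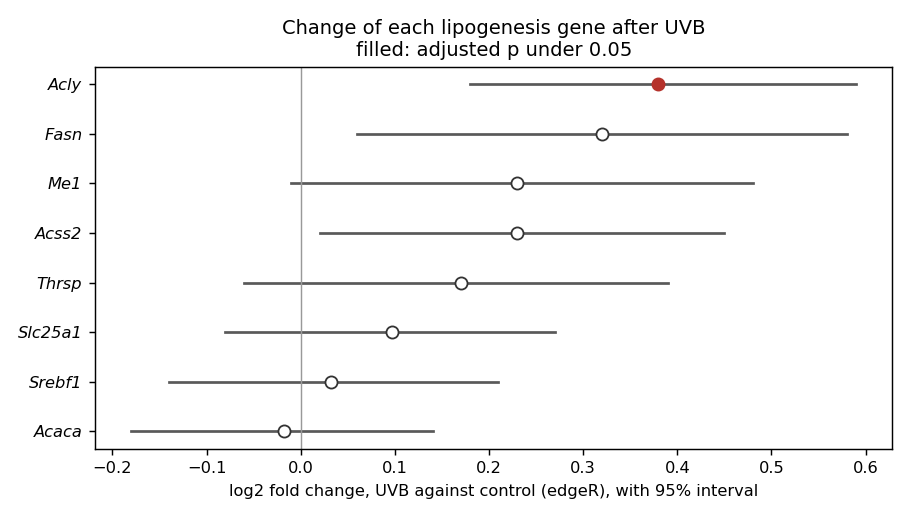
Log2 fold change of UVB against control for the 8 genes (points; filled where the adjusted p is under 0.05) with 95% intervals from edgeR that are not adjusted for the number of genes. The intervals of Acly, Fasn and Acss2 lie above 0, from 0.18 to 0.59 for Acly, and Acly is the filled point.

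The first steps supply acetyl-CoA to the cytosol. Slc25a1, the carrier that exports citrate from the mitochondrion, measured 749, 661, 770.3 and 674 TPM in controls a to d and 754, 802 and 741 TPM in UVB a to c. The groups overlapped, with 1 of 3 UVB libraries above every control. The log2 difference of 0.0972 (SE 0.0777) had an adjusted p of 0.439 by edgeR, and the 95% interval of the change ran from -5.2% to 20.7%.

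Acly measured 338, 286, 308 and 271 TPM in controls a to d and 376, 413 and 393 TPM in UVB a to c, or 300.5 ± 29.2 (SD, n = 4) and 394 ± 18.5 (SD, n = 3). Each UVB library exceeded each control, the closest pair being control a and UVB a. The 95% interval of the rise ran from 13.3% to 50.2%. The adjusted p stayed under 0.05 in the 13 alternatives that kept all libraries. Leaving out 1 control gave 0.0652 (control b), 0.071 (control c) or 0.0686 (control d), and leaving out 1 UVB library gave 0.0721 (UVB b) or 0.0646 (UVB c), with log2 fold changes of 0.34 to 0.38. Between 16369 and 28627 counts lay behind each value, so counting error was small beside the spread between libraries.

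Acss2, which makes acetyl-CoA from free acetate, is the other source. It measured 104, 97.8, 92.3 and 91.6 TPM in the controls and 98.9, 127 and 115 TPM in UVB a to c. UVB b and c were above every control and UVB a was inside the control range. Acss2 overlaps LOC120102019 in the GRCr8 assembly. On the log2 scale Acss2 was 0.23 higher (SE 0.0963, adjusted p = 0.139 by edgeR). The difference was 0.34 without UVB a, where it passed (adjusted p = 0.0442), and 0.14 without UVB b (adjusted p = 0.384). The ratio of Acss2 to Acly, read within each library so that library scaling cancels, averaged 0.322 ± 0.0217 (SD, n = 4) for control glands and 0.288 ± 0.0228 (SD, n = 3) for UVB glands, with overlapping ranges of 0.3 to 0.342 and 0.263 to 0.308.

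The sequence upstream of Acly is shown because Acly is the gene called and because its upstream region is known for a sterol regulatory element of its own. The sequences are from RefSeq on assembly GRCr8, a different build from the rn7 named for the counts. They give the 250 bases before the listed start, 5′ to 3′ on the gene's strand, and 6 of the 8 genes had an entry. The window of Acly is chr10:85963632-85963881, minus strand. Capitals mark TCAGGCTAG, the letters known for that element, as well as the CCAAT box and the GC box (GGGCGG), each searched on both strands.
Acly: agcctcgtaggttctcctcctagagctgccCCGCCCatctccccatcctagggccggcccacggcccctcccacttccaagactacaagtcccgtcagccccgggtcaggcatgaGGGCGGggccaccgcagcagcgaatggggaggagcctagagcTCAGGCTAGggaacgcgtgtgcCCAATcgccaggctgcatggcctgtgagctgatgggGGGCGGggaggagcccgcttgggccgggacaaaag
The letters TCAGGCTAG lay 93 to 85 bases before the start of Acly and the CCAAT box 71 to 67 bases before it, and GGGCGG was found 3 times. Among 33469 RefSeq windows of the same length, TCAGGCTAG was in 0.185%, CCAAT in 34% and GGGCGG in 30.5%. The letters TCAGGCTAG were chosen because they are known from upstream of Acly, so finding them there was fixed in advance. Over the 7 windows listed for the 6 genes, 1 held TCAGGCTAG, 6 held CCAAT and 7 held GGGCGG. Of these windows 2 belong to Srebf1. Their share of G and C ran from 54% (Thrsp) to 83.2% (Me1), and the other windows were not matched for it. The E-box CACGTG, in 5.59% of all windows, was in 0 of the 7. A match of letters is not evidence of a site in use, and a missing match says only that the letters are not in the window.

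Reducing power for fatty acid synthesis comes in part from Me1, the cytosolic malic enzyme, which makes NADPH while turning malate to pyruvate. Me1 measured 786, 623, 659 and 614 TPM in the controls and 736, 861 and 779 TPM in UVB a to c. Control a lay inside the UVB range and the other controls lay below it. UVB exceeded control by 0.23 on the log2 scale (SE 0.109, adjusted p = 0.186 by edgeR), and the 95% interval of the change was -0.721% to 39.3%. Without control a it was 0.33 and passed (adjusted p = 0.0379), and without UVB b it was 0.16 (adjusted p = 0.423).

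Acaca and Fasn carry out the committed steps. Acaca encodes acetyl-CoA carboxylase alpha, which makes malonyl-CoA. It measured 134, 123, 127 and 116 TPM in the controls and 125, 124 and 124 TPM after UVB, so that the 3 UVB libraries sat in the middle of the control range. For Acaca the log2 fold change of -0.0178 (SE 0.0711) had an adjusted p of 0.897 by edgeR, and the 95% interval ran from -11.6% to 10.3%. The sign was positive without control a (0.0267) and in limma-voom with quality weights (0.00232). Acaca overlaps C10h17orf78 and 2 further annotated genes in GRCr8, where reads on the 2 strands cannot be told apart without knowing how strand was treated, which is not given in the sources used here.

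Fasn, the multifunctional enzyme that extends and releases palmitate, was more variable. It measured 444, 354, 376 and 315 TPM in controls a to d and 456, 489 and 452 TPM in UVB a to c, or 372 ± 54.3 (SD, n = 4) and 465 ± 20.1 (SD, n = 3). The groups did not overlap, but control a was close to the lowest UVB library. The log2 fold change of 0.32 (SE 0.117) had an edgeR adjusted p of 0.106 and a 95% interval from 3.89% to 49.3%. It passed under DESeq2 (adjusted p = 0.0349) and without control a (log2 fold change 0.42, adjusted p = 0.0186), and not in the other 18 alternatives, where the adjusted p reached 0.236. Fasn and Thrsp are also fat cell genes, and control c held the highest level of the adipocyte hormone gene Adipoq (17.6 TPM, against 3.04 to 9.01 in the other controls and 1.85 to 4.07 after UVB). Control c measured 376 TPM of Fasn and 257 TPM of Thrsp, and the part of fat cells in either gene was not tested.

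Acaca was also read in proportion to Fasn within each library. For each unit of Fasn there was 0.303, 0.347, 0.337 and 0.368 of Acaca on the TPM scale in controls a to d, and 0.273, 0.253 and 0.274 in UVB a to c. Every UVB ratio was below every control ratio, and the mean log2 ratio was -0.34 in UVB minus control. Leaving out any 1 library gave differences between -0.40 and -0.30. The ratio was not tested, and neither gene passed alone (edgeR adjusted p = 0.897 for Acaca and 0.106 for Fasn). Fasn alone also separated the groups, as did 13.5% of tested genes in that direction. How many other pairs of genes separate in this way was not counted.

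**Figure D3:**
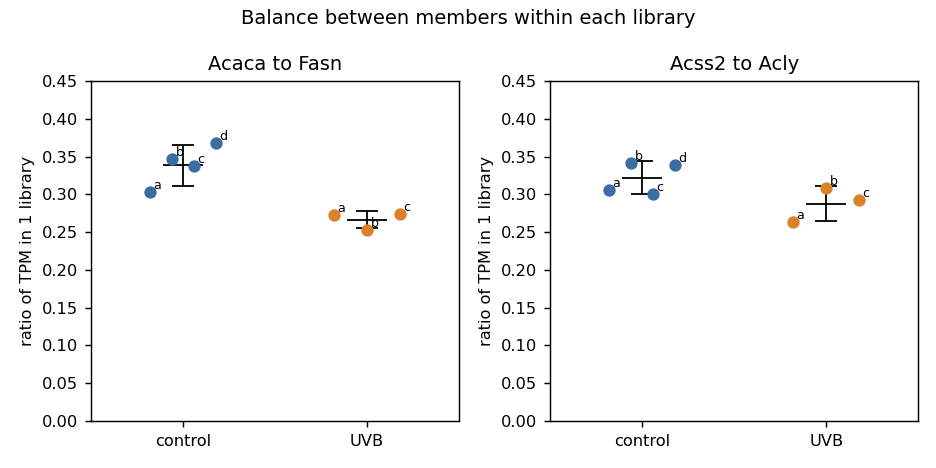
Ratio of TPM between 2 genes within each library (vertical axes, from 0), Acaca to Fasn on the left and Acss2 to Acly on the right, for controls (blue) and UVB libraries (orange), with the mean and 1 SD. Acaca to Fasn is 0.303 to 0.368 in the controls and 0.253 to 0.274 after UVB, without overlap, while the Acss2 to Acly ranges overlap.

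Neither of the 2 regulators analysed passed the test. Srebf1, the gene of the transcription factor SREBP-1, measured 145, 125, 147 and 127 TPM in the controls and 134, 146 and 138 TPM in UVB a to c. All 3 UVB values lay inside the control range. The mean change of Srebf1 was 2.29% with a 95% interval from -9.43% to 15.5% (log2 fold change 0.0326, SE 0.0783, adjusted p = 0.818 by edgeR), and its sign was negative without control b (-0.00377) or UVB b (-0.0105). Counts of Srebf1 were not whole in any of the 7 libraries, as when reads are shared out by estimation, and the gene overlaps Rai1 in GRCr8.

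RefSeq lists 2 starts for Srebf1, and the deposited values are for the gene as a whole, so a shift between the starts was not measured. Both upstream windows are shown for that reason, with capitals for CCAAT and GGGCGG on either strand. The first window is chr10:45529165-45529414 and the second, nearer the end of the gene, is chr10:45519011-45519260, both on the minus strand of GRCr8.
Srebf1, first start: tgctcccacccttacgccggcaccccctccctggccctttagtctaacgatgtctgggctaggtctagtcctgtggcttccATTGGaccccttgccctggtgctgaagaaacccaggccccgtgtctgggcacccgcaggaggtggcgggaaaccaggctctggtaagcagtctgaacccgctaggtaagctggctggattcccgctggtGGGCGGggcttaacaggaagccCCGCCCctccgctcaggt
Srebf1, second start: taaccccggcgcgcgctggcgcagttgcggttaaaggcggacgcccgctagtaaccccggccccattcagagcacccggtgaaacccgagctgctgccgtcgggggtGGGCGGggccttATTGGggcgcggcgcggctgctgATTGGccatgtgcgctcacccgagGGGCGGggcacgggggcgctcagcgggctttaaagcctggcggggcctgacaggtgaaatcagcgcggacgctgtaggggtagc
The first window held CCAAT once and GGGCGG at 2 places. The second held CCAAT at 2 places, 131 to 127 and 108 to 104 bases before the start, and GGGCGG at 2 places.

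Thrsp, known as Spot 14, is a small protein induced by thyroid hormone and feeding that promotes lipogenesis. It measured 259, 267, 257 and 278 TPM in the controls, the tightest of the 8 genes with a coefficient of variation of 3.68%, and 262, 348 and 285 TPM in UVB a to c. UVB b stood highest, UVB c was above every control and UVB a lay among them. Thrsp was 0.17 higher on the log2 scale (SE 0.102, adjusted p = 0.314 by edgeR), and 0.0281 higher without UVB b (adjusted p = 0.851).

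The libraries of a group did not move alike across the 8 genes. UVB b held the highest UVB value for 7 of the 8 genes and exceeded every control for 6 of them, with a median deviation of 0.38 on the log2 TPM scale from the control mean. The corresponding medians were 0.16 for UVB c and 0.06 for UVB a, which held the lowest UVB value for 5 genes and exceeded every control for 2. Among the controls, control a was highest for 5 genes (median 0.11) and control d was lowest for 5 (median -0.10). Acly and Fasn were 0.29 or more above the control mean in each UVB library, whereas Acss2 ranged from 0.041 in UVB a to 0.404 in UVB b.

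**Figure D4:**
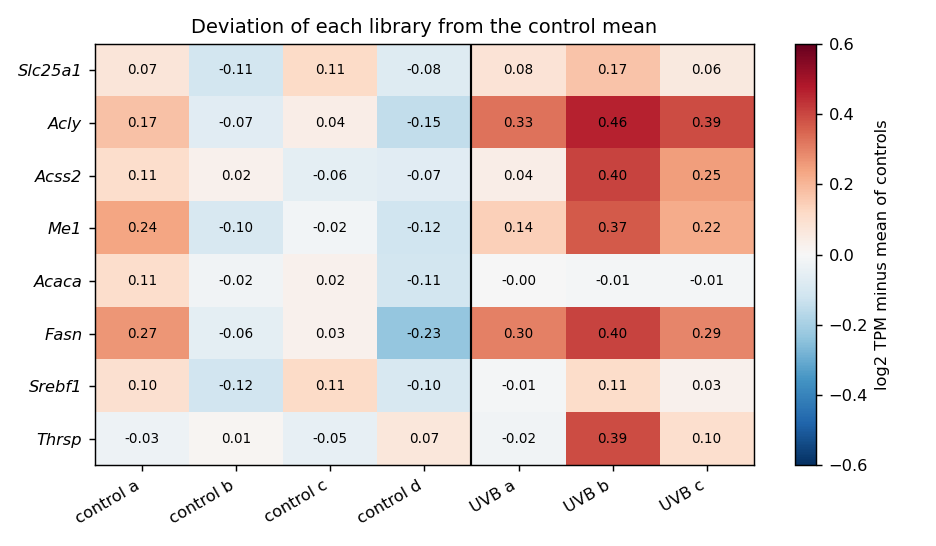
Difference between log2 TPM in each library and the mean log2 TPM of the 4 controls for each gene (rows) and library (columns), with red above and blue below the control mean and the value in each cell. UVB b is the darkest column with values up to 0.46 for Acly, and the rows of Acaca and Srebf1 stay within 0.12 of 0.

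Partners and paralogs of these genes were read beside them. Acacb, the mitochondrial-membrane acetyl-CoA carboxylase whose malonyl-CoA restrains fatty acid oxidation, was about as abundant as Acaca, at 109 ± 20.4 TPM (SD, n = 4) without UVB and 133 ± 23.9 TPM (SD, n = 3) with UVB, a log2 difference of 0.28 that did not pass (adjusted p = 0.314 by edgeR). Mid1ip1, the paralog of Thrsp, exceeded Thrsp in 7 of 7 libraries and measured 806 ± 94.8 TPM in controls and 719.8 ± 51.8 TPM after UVB (log2 fold change -0.17, adjusted p = 0.31). None of the 9 genes of the list that held these 2, with genes of cofactor attachment and fatty acid release, was called, beside 13.0% of all tested genes. For 2 of the 9 every UVB library lay below every control, as for 12.6% of tested genes.

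In the list of SREBP processing 0 of 11 genes were called, beside 13.0% of all tested genes. The median log2 fold change was 0.00251 (-0.023 to 0.0279 without 1 library). For 2 of the 11 every UVB library lay above every control, as for 13.5% of tested genes. Srebf2, the gene of the cholesterol-directed SREBP, measured 96.4 ± 3.13 TPM (SD, n = 4) and 97 ± 8.89 TPM (SD, n = 3). Scap, the SREBP escort, had a log2 fold change of 0.10 (edgeR adjusted p = 0.284) and groups that did not overlap (82.2 to 91.3 TPM in controls, 91.6 to 95.5 TPM after UVB). Insig1, which retains SREBP in the endoplasmic reticulum and is itself a target of SREBP, measured 447, 370.3, 398 and 382 TPM in the controls and 286, 373 and 318 TPM in UVB a to c. UVB a and c were below every control and UVB b was not. On the log2 scale this was -0.30 (SE 0.11, adjusted p = 0.106), and -0.42 without UVB b, where it passed (adjusted p = 0.0417). AMPK restrains acetyl-CoA carboxylase by phosphorylation. Of the 10 genes analysed for its subunits, its upstream kinases and their partners 0 were called, beside 13.0% of all tested genes. Their median was -0.0703 (-0.0769 to 0.0118 without 1 library).

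With Mlxipl not analysed, its dimer partner Mlx (log2 fold change 0.0887, edgeR adjusted p = 0.626) and its paralog Mlxip (-0.12, adjusted p = 0.389) did not pass. In the list of partners and targets of the carbohydrate response, 2 of 9 genes were called, both lower. That is 22.2% beside 13.0% of all tested genes. The list median was 0.0887 (0.00483 to 0.14 without 1 library), and 5 of 9 genes were above 0. Among these, Khk (0.21), Tkfc (0.21), Gpd1 (0.24) and G6pc3 (0.14) were not called. Txnip, a glucose-induced arrestin that limits glucose uptake, fell from 151 to 264 TPM in the controls to 122 to 131 TPM after UVB (log2 fold change -0.79, SE 0.18, adjusted p = 0.0278). Its relative Arrdc4 fell from 14.9 to 23.6 TPM to 9.89 to 13.6 TPM (log2 fold change -0.73, SE 0.179, adjusted p = 0.0329). For both, every UVB library was below every control, as for 12.6% of tested genes. The call of Txnip was lost without control c (adjusted p = 0.0633), UVB a (0.081), UVB b (0.0869) or UVB c (0.0566), and that of Arrdc4 without control b (0.0768), control c (0.0606), UVB a (0.096) or UVB b (0.112).

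Of 18 further regulators of lipogenic genes, 1 was called higher and 3 lower, or 22.2% beside 13.0% of all tested genes. The median log2 fold change was -0.14. The thyroid hormone receptor genes Thra (-0.33, edgeR adjusted p = 0.0421) and Thrb (-0.29, adjusted p = 0.045) fell, as did the pseudokinase gene Trib3 (-0.66, adjusted p = 0.0368), while the insulin pathway kinase gene Akt1 rose (0.23, adjusted p = 0.024). The liver X receptor genes Nr1h2 (-0.00228, adjusted p = 0.989) and Nr1h3 (-0.19, adjusted p = 0.11) did not pass. These 4 calls were fragile. Thrb lost its call without any 1 of the 7 libraries (adjusted p up to 0.127) and Thra without control b, c or d or UVB b or c (up to 0.123). Trib3 lost it without control a, b or c or UVB a or b (up to 0.118), and Akt1 without control b or c or UVB b or c (up to 0.073). With all libraries kept, Thra also lost its call under upper quartile factors (0.0548), library size alone (0.074) and 3 fits of log2 TPM (up to 0.0973). Thrb lost it under library size alone (0.0594), without a low-count filter (0.0581) and in the same 3 fits (up to 0.158). Trib3 lost it in limma-voom with quality weights (0.0773) and in 1 of those fits (0.0723). Counts of Thra were not whole in any library, and it overlaps Med24 and Nr1d1 in GRCr8.

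Genes that feed carbon and reducing power into lipogenesis were read next. In glucose uptake and glycolysis 6 of 19 genes were called higher and 1 lower, or 36.8% beside 13.0% of all tested genes. The median log2 fold change was 0.15, but 0.0609 without control a, 0.24 without UVB b and 0.0878 in limma-voom with quality weights. Pkm, the last enzyme of glycolysis, rose from 305 to 347 TPM in the controls to 462 to 487 TPM (0.52, SE 0.0679, edgeR adjusted p = 0.00348), Eno1 from 348 to 416 TPM to 527 to 587 TPM (0.53, adjusted p = 0.00605), the glucose transporter gene Slc2a1 from 73.4 to 81.4 TPM to 97 to 107 TPM (0.38, adjusted p = 0.00871) and Pgk1 from 209.8 to 233 TPM to 269 to 298 TPM (0.35, adjusted p = 0.0101). The groups did not overlap for any of these 4, as for 13.5% of tested genes in that direction. The 4 were named by smallest p-value, so their separation is not further evidence. Outside the naming rule and chosen after their values were seen, Pgam1 (0.44) and Ldha (0.41) were the other rises and Ldhb (-0.29) the fall. The call of Ldha was lost on leaving out any 1 library other than control a (adjusted p up to 0.128). Counts of Pkm, Eno1 and Ldha were not whole in any library, so their reads may be shared with near-identical copies. The summed level of the basal keratinocyte markers, given above, was also higher in the UVB libraries, through Krt14, while 3 of its 5 genes had negative log2 fold changes. Its part in these rises was not tested.

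**Figure D5:**
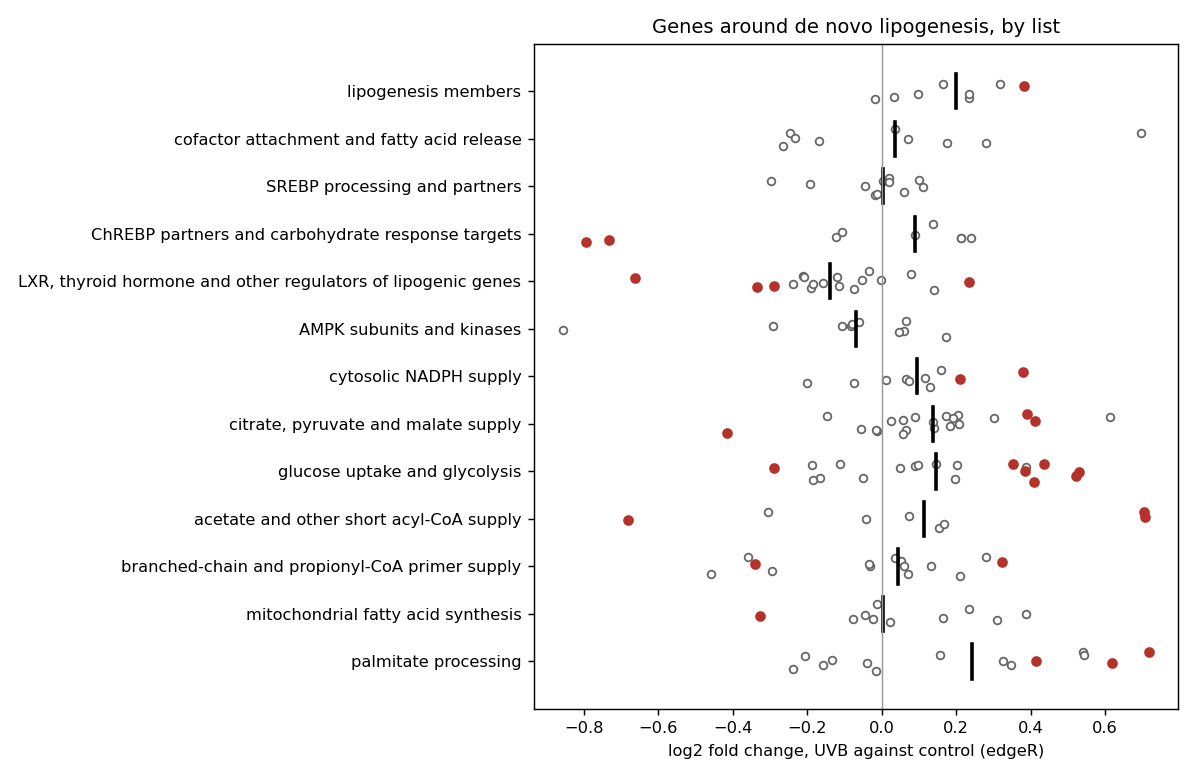
Log2 fold change of UVB against control (edgeR) for each tested gene of the 8 lipogenesis genes and of the 12 surrounding lists, 1 row per list; filled red points have an adjusted p under 0.05 and the black bar is the list median. The glycolysis row holds the most filled points, 7, and the rows of cofactor attachment, SREBP processing and AMPK hold none, beside calls for 13.0% of all tested genes.

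Of 21 genes that supply citrate, pyruvate and malate, 2 rose and 1 fell, or 14.3% beside 13.0% of all tested genes. The median was 0.14, and 0.0652 without UVB b. Mpc2, a subunit of the mitochondrial pyruvate carrier, rose (0.39, SE 0.0836, edgeR adjusted p = 0.0181), as did Slc25a10, the mitochondrial dicarboxylate carrier (0.41, SE 0.0971, adjusted p = 0.0255). Pdk4, a kinase that shuts pyruvate dehydrogenase, fell from 229 to 274 TPM in the controls to 171 to 216 TPM after UVB (-0.42, SE 0.104, adjusted p = 0.0307). Of 10 genes listed for cytosolic NADPH, 2 rose and 0 fell (20%): the pentose phosphate enzymes Tkt (0.38, SE 0.0881, adjusted p = 0.0241) and Pgls (0.21, SE 0.0535, adjusted p = 0.033). That list also held H6pd (-0.20, not called), whose enzyme works in the endoplasmic reticulum. Mpc2 lost its call without control c (0.0517) or UVB b (0.0547). Tkt lost it without control c or d or UVB b or c (up to 0.0711), and Slc25a10 on leaving out any 1 library other than control a or UVB a (up to 0.0666). Pdk4 lost it without control c or d or UVB a or c (up to 0.0976), and Pgls without any 1 library other than control a (up to 0.0869). Mpc2 overlaps Adcy10 and Pgls overlaps Slc27a1 in GRCr8.

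Among 8 genes for acetate and other short acyl-CoA, 2 rose and 1 fell, or 37.5% beside 13.0% of all tested genes. Each called gene had groups that did not overlap, as did 13.5% of tested genes upward and 12.6% downward. Acss1, the mitochondrial counterpart of Acss2, fell from 14.5 to 17.9 TPM in the controls to 9.45 to 12 TPM (-0.68, SE 0.0989, edgeR adjusted p = 0.00511). Acsf3, a mitochondrial malonyl-CoA synthetase, rose from 23.4 to 25.3 TPM to 34.5 to 43.1 TPM (0.70, SE 0.0808, adjusted p = 0.0023). Aacs, which activates acetoacetate in the cytosol for lipid synthesis, rose from 46.1 to 66.1 TPM to 72.5 to 106 TPM (0.71, SE 0.154, adjusted p = 0.024), a call that was lost on leaving out any 1 library other than control a or UVB a (up to 0.0678). Of 14 genes for branched-chain and propionyl-CoA primers, Bcat2 rose (0.32, adjusted p = 0.0346) and Pccb, a subunit of propionyl-CoA carboxylase, fell (-0.34, adjusted p = 0.011). The call of Bcat2 held without control a or UVB c and was lost on leaving out any other library (up to 0.0987). In the list for mitochondrial fatty acid synthesis, a separate pathway, 1 of 10 genes was called, Hsd17b8, lower (-0.33, adjusted p = 0.0198). That list also held Hsd17b12 (0.31, not called), an enzyme of fatty acid elongation in the endoplasmic reticulum. The fall of Hsd17b8 was -0.14 on the log2(TPM + 1) scale, where it did not pass, and its call was also lost without control d (0.0528), UVB a (0.0569) or UVB c (0.0556). Its counts were not whole in any library.

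Genes that activate, elongate or desaturate fatty acids formed the last list, of which Elovl6 was not analysed here. Of the 14 genes analysed 3 rose and 0 fell, or 21.4% beside 13.0% of all tested genes. The median was 0.24, and 0.0814 without UVB c. These were the elongase gene Elovl5 (0.72, SE 0.128, edgeR adjusted p = 0.0105), the acyl-CoA synthetase gene Acsl5 (0.41, SE 0.0699, adjusted p = 0.00786) and LOC681458, listed as similar to stearoyl-CoA desaturase 3 (0.62, SE 0.172, adjusted p = 0.0465). The call of LOC681458 held without control a or UVB a and was lost on leaving out any other library (up to 0.139), without a low-count filter (0.0501) and in 3 fits of log2 TPM (0.0525 to 0.085). Scd, the most abundant transcript, measured 27692 ± 2517 TPM (SD, n = 4) in controls and 27033 ± 3279 TPM (SD, n = 3) after UVB (-0.0396, adjusted p = 0.879), with a positive sign without control a, UVB a or UVB c (up to 0.031). Counts of Scd, LOC681458 and Acsl5 were not whole in any library, so reads may be shared between genes. Over the 12 surrounding lists 17 of 153 genes were called higher and 10 lower, 17.6% in all beside 13.0% of all tested genes. Of these 27 calls, 11 held in all 20 alternatives, including those of Pkm, Eno1, Slc2a1, Pgk1, Acss1, Acsf3, Pccb, Elovl5 and Acsl5.

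Genes whose profile across the 7 libraries was most like that of Acly were sought among 8083 genes with a mean of at least 10 TPM, by the root mean square difference of log2 CPM after centring each gene. The nearest 5 were Nomo1 (0.0329), Slc35b4 (0.0382), Ccdc47 (0.0423), Tkt (0.0454) and Bop1 (0.0467), with log2 fold changes from 0.33 to 0.42. Around Slc25a1, which had the highest mean TPM of the 8 genes over the 7 libraries but was not separated from Me1, they were Imp4 (0.0236), S100a8 (0.0275), Epn1 (0.028), Atp13a1 (0.0282) and Itgb1bp1 (0.0289). The other lipogenesis genes were left out of the search.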

How the data were processed

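RNA from 4 control and 3 UVB glands was sequenced. The authors' deposited expected counts are estimates per gene and are not normalised (12.5% were not whole). The deposited TPM values were scaled by the authors for gene length and depth, and their sums were 82% to 84.1% of the nominal TPM total. Trimmomatic, FastQC, DRAGEN and Picard and build rn7 are named, per the submitters' processing notes; the annotation and strand handling are not given in the sources used here. Gene descriptions with commas shifted 2281 rows, whose last 7 cells were taken as the values. Rows lacking a value (5) were left out.

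Expected counts were rounded and tested in edgeR 4.0.16 (R 4.3.3; quasi-likelihood, robust, TMM, filterByExpr), which kept 13709 genes. Two-sided p-values were adjusted over all of them by Benjamini-Hochberg, with a threshold of 0.05, and each SE was derived from the log2 fold change and the F statistic. CPM was computed here. The fits were tested on simulated data. The results were recomputed with DESeq2 1.42.0, limma-voom from limma 3.58.1, other scalings and filters, limma on log2 TPM, unrounded counts, and leaving out each library.

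The genes and lists were chosen with earlier results of these data known, so lists are described by counts and medians without a test. Of 236 listed symbols 17 were not analysed here and 2 were matched by another symbol. Named genes were the set itself, at most 4 called genes per list by p-value, 13 fixed partners and the 5 nearest profiles to each of 2 genes. GRCr8 served for symbols, neighbours and sequences (RefSeq). Overlaps with annotated genes are not stated for every gene: Acsf3, Acss1, Bcat2, Thrb, Pkm and Acsl5, among others, have them too. Counts of Scap, Insig1 and Mlx were also not whole in any library.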

Additional observations from a re-analysis of the deposited data

Results flagged for a closer look

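The spread of the 4 controls was examined for 44 genes and ratios, and in 2 of them a single library stood away from the rest (2.2 are expected at 1 in 20). Mlx measured 69.4 TPM in control a and 53.9 to 54.9 TPM in controls b to d, so the gap was 0.939 of the whole range. Slc2a1 measured 73.4 TPM in control b and 80.2 to 81.4 TPM elsewhere, with a gap of 0.848. None of the 8 lipogenesis genes had such a library. Groups of 3 were not examined in this way.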

How the results depend on the processing

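No paired analysis was possible because no replicate number of the labels appears in the column names. The 13 alternatives that kept all libraries and the threshold left Acly as the 1 lipogenesis gene called, other than DESeq2, which called 2 with Fasn (log2 fold change 0.32). Without 1 replicate the count ran from 0 to 3. The log2 fold changes without 1 replicate ran from 0.25 to 0.42 for Fasn, 0.34 to 0.45 for Acly, 0.14 to 0.34 for Acss2, 0.16 to 0.33 for Me1, -0.0467 to 0.0267 for Acaca and -0.0105 to 0.0729 for Srebf1; the cause was not tested. Acaca was 0.00232 in limma-voom with quality weights. Srebf2 was -0.00118 in limma-voom, -0.0131 with quality weights, -0.00258 with a mean count of at least 50, and -0.0576 to 0.0755 without 1 replicate. Nr1h2 was 0.00281 in DESeq2, 0.00275 with its size factors, 0.000827 without a low-count filter, 0.00107 with unrounded counts (added once the data had been seen), and -0.0868 to 0.0485 without 1 replicate. Scd was -0.15 to 0.031 without 1 replicate.

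Of the genes named in the 12 lists, Txnip (adjusted p = 0.058), Arrdc4 (0.0657), Pdk4 (0.0515), Bcat2 (0.0515) and Ldha (0.067) also lost their calls in limma on log2(TPM + 1) without a filter. Over all genes, that fit gave 1137 calls, 521 of them lower, and left 4 lower calls in the 12 lists, and an adjusted p under 0.01 left 383 of 1787, stricter by construction. Without 1 replicate there were 851 to 1898 calls, 421 to 927 higher and 430 to 971 lower, with 8 to 21 higher and 4 to 8 lower calls in the 12 lists. The lipogenesis genes had at least 3779 counts in every library.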
